A study of Rattus norvegicus with 56 samples.

Results

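Vgf, Scg2, Adcyap1, Tac1, Penk, Pdyn, Cck and Crh encode neuropeptide precursors and proteins of the dense-core vesicle, the granule in which neurons store peptides. The 8 genes were chosen by name for this function. They were found through the RefSeq accession that the array design gives each probe, among 16581 genes with a probe and a symbol, and the brightest probe stood for the gene. They had 12 probes in all, and all 12 passed the filter on dim signal. The cells were primary hippocampal neurons from embryonic day 18 Sprague-Dawley rats, grown in Neurobasal medium with B27 in 35 mm dishes. Repetitive transcranial magnetic stimulation (rTMS), which induces currents in tissue with a pulsed magnetic coil, was given to the dish as a 1 Hz train or as intermittent theta burst stimulation (iTBS), both at 15% of maximum output. Sham dishes lay about 20 cm from the coil, and untreated control dishes were collected at 0 h only. RNA was collected at 5 times counted from the end of stimulation (0, 2, 8, 24 and 48 h), in 3 or 4 dishes per arm and time, and each was hybridised to a 1-colour Agilent array. The comparison of each protocol with sham asks how a culture responds to the coil, and the comparison of times follows the cultures over 48 h.

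The arrays carry another label, a running number in the sample descriptions, that falls into 4 runs: 1 to 18, 22 to 36, 37 to 54 and D1 to D15. They are called culture series A, B, C and D here, and what a series stands for was not given in the sources used here. A group held mostly 1 dish per series. After 1 array was left out because the scanner software had marked its grid as not good (1 Hz at 2 h, replicate 2, which left 2 dishes in that group), 55 arrays were used, 11 of series A, 12 of B, 17 of C and 15 of D. Of all probes, 66.1% to 81.8% were well above background on each array, no spot was saturated, and the 75th percentile of the signal ran from 1896 to 18416. Series A, B and C shared no slide with each other, while series D was spread over all 7 slides. Within each series the slides largely followed the times, so early and late dishes mostly lay on different slides. A change over time within a series, or its difference between series, cannot be told apart from a step between slides. Nothing in the labels says which dishes came from separate preparations, so p-values measure the spread between these dishes, which may be technical. The number of arrays per group limits the precision. A level below is a log2 signal set to a common mean of 0 and a common spread on every array, so that a difference of 1 is about a 2-fold difference. Levels of different genes come from different probes and are not set against each other. In RNA from a whole dish, fewer cells of a type and less RNA per cell cannot be told apart.

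Neuropeptides are cut from larger precursors by prohormone convertases, packed into dense-core vesicles with the granins, and released on sustained firing to act on G protein-coupled receptors. Their genes are classic targets of activity. Calcium and cyclic AMP act through CREB, a factor that binds the cyclic AMP response element, and several of these precursors are known for rising after seizures or depolarisation. In the hippocampus, Cck, Tac1 and Crh are best known from interneurons, while Pdyn is best known from the granule cells of the dentate gyrus.

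The response element is the reason for showing the start regions of 3 of the genes here. Both granule proteins with an entry in the promoter table, Vgf and Scg2, held the full palindrome TGACGTCA, and Tac1 held its core TGACG, on the reverse strand, where it reads CGTCA. The 250 bases before each annotated start are printed 5′ to 3′ on the gene's strand as given by RefSeq for the GRCr8 assembly, with the match in capitals. Vgf lies at chr12:25277021-25277270 (minus strand), Scg2 at chr9:88256867-88257116 (minus strand) and Tac1 at chr4:36645333-36645582 (plus strand).
Vgf: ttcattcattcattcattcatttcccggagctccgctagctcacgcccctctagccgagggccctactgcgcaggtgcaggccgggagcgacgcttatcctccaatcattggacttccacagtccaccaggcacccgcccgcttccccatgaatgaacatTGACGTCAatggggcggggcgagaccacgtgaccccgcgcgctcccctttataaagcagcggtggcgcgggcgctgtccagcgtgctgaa
Scg2: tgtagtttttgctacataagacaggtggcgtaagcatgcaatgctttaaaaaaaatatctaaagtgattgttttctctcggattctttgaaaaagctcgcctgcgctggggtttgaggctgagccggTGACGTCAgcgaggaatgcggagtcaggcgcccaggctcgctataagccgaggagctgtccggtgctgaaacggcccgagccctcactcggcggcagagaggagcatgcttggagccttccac
Tac1: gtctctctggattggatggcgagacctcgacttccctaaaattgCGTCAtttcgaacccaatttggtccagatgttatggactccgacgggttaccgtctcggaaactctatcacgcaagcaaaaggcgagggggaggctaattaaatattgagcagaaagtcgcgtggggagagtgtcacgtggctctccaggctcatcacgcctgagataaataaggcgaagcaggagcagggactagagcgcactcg

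The palindrome began 90 bases before the Vgf start and 123 before the Scg2 start, and the Tac1 core 206 bases before. Of 33469 promoter entries, 1.587% held TGACGTCA, 18.22% held TGACG and 6.34% held the AP-1 element TGANTCA in their 250 bases, counting both strands. Each TGACGTCA also contains TGACG. Entries were present for 5 of the 8 genes. None of the 3 motifs was found in the Adcyap1 and Pdyn windows. A match is a run of letters in this window and was not measured as a site.

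None of the 8 genes was called different between a stimulated and a sham group. In limma's moderated test with Benjamini-Hochberg adjustment over all 35694 probes tested, 0 of 80 contrasts (8 genes, 2 protocols, 5 times) were called, 0 had an unadjusted p under 0.05, and between 0% and 0.0056% of all probes were called at a given protocol and time. The log2 differences ran from -0.96 to 1.12 with standard errors of 0.36 to 1.19. Untreated control against sham at 0 h called 0 of 8 (0.0028% of all probes), and iTBS against 1 Hz called 0 of 40 (0% to 0.0056% of all probes). The criteria of the study's methods, applied to the same levels, also called 0. Their first filter, an ANOVA p under 0.05 across the groups, already stopped all 8 genes (p 0.675 to 0.999). The later steps of those criteria therefore had no say for these genes.

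Within the groups the dishes were far apart. Vgf, a secreted granule protein and the source of several peptides, illustrates it. In sham dishes at 0 h its level was 10.09 in series A, 8.65 in B, 7.33 in C and 7.82 in D. In iTBS dishes at 0 h it was 9.58, 9.04, 7.44 and 8.31 in the same order. The groups overlapped, iTBS was above sham in 3 of the 4 series, and the distance between series A and C in either group was larger than any difference between the arms within a series. Pdyn, the precursor of the dynorphins, was the gene closest to a call when dishes were compared within their series and time point. Its level at 0 h was -0.33, -0.07, 0.47 and 1.46 in the sham dishes of series A to D and -0.67, -0.96, 0.23 and -0.90 in the iTBS dishes. The iTBS dish was lower in all 4 series but the groups overlapped, and the difference of -0.96 ± 0.27 (SE) had an adjusted p of 0.0955 in limma with series and time as a block. It was -0.55 (adjusted p = 0.399) without the iTBS dish of series D and -1.21 (0.0365) without that of series C, and the adjusted p was 0.101 or 0.219 without that of A or B. Under that block, 8 of the 80 contrasts had an unadjusted p under 0.05, beside 6.83% of those of all probes, and 0 were called.

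**Figure D1:**
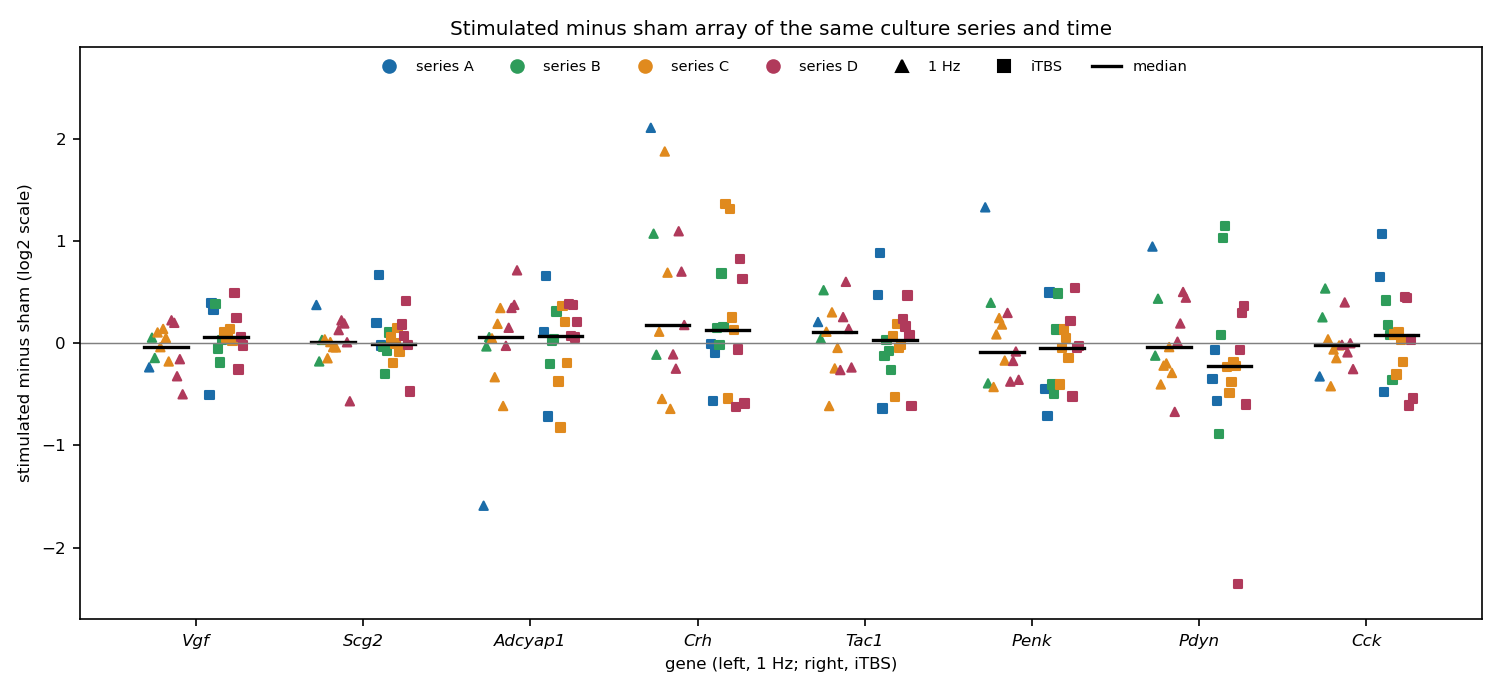
Log2 difference between a stimulated dish and the sham dish of the same culture series and time, for each of the 8 genes (1 Hz, 13 pairs; iTBS, 17 pairs), with the line at 0 marking no difference. The points of each gene lie on both sides of 0.

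Pairing dishes of 1 series and time gave 13 comparisons of 1 Hz with sham, 17 of iTBS with sham and 14 of iTBS with 1 Hz. Vgf was higher under iTBS than under 1 Hz in 12 of 14 pairs, from -0.04 to 0.56 with a median of 0.15. The average over the 5 times, added after the data were seen, was 0.14 ± 0.07 (SE, 95% interval 0.00 to 0.28), with an unadjusted limma p of 0.0455 and an adjusted p of 0.999. Against sham, Vgf was higher in 12 of 17 iTBS pairs and in 6 of 13 pairs with 1 Hz. Pdyn ran the other way, lower under iTBS than under 1 Hz in 10 of 14 pairs, with an average of -0.30 ± 0.14 (95% interval -0.60 to -0.01) and again an adjusted p of 0.999 in limma. Tac1 and Crh, the precursors of substance P and of corticotropin-releasing hormone, were lower under iTBS in 10 and 9 of 14 pairs. Adcyap1 was lower in 9 and Penk in 8 of 14, Scg2 was lower in 7 and higher in 7, and Cck was higher in 9. Neither protocol average against sham was called for any gene. The 95% intervals of those averages, with series and time as a block, ran no lower than -0.23 and no higher than 0.31 for Vgf, Scg2, Adcyap1, Tac1, Penk and Cck. They were wider for Pdyn, which reached 0.43 with 1 Hz and -0.44 with iTBS, and for Crh, which reached 0.99 with 1 Hz.

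The level of each of the 8 genes differed between the culture series. With group in the model, limma's F test across the 4 series called 8 of 8, against 75.4% of all probes, with adjusted p from 5.0e-23 for Tac1 to 4.1e-06 for Penk. Of 48 differences between pairs of series, 37 were called, where 30.4% (B against A) to 53% (D against B) of all probes were. A split of the sum of squares over the 51 arrays of the sham, 1 Hz and iTBS arms gave the series 90.5% for Tac1, 88.0% for Vgf, 75.4% for Scg2 and between 42.7% and 67.4% for the other 5, against a median of 27.7% over all probes.

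**Figure D2:**
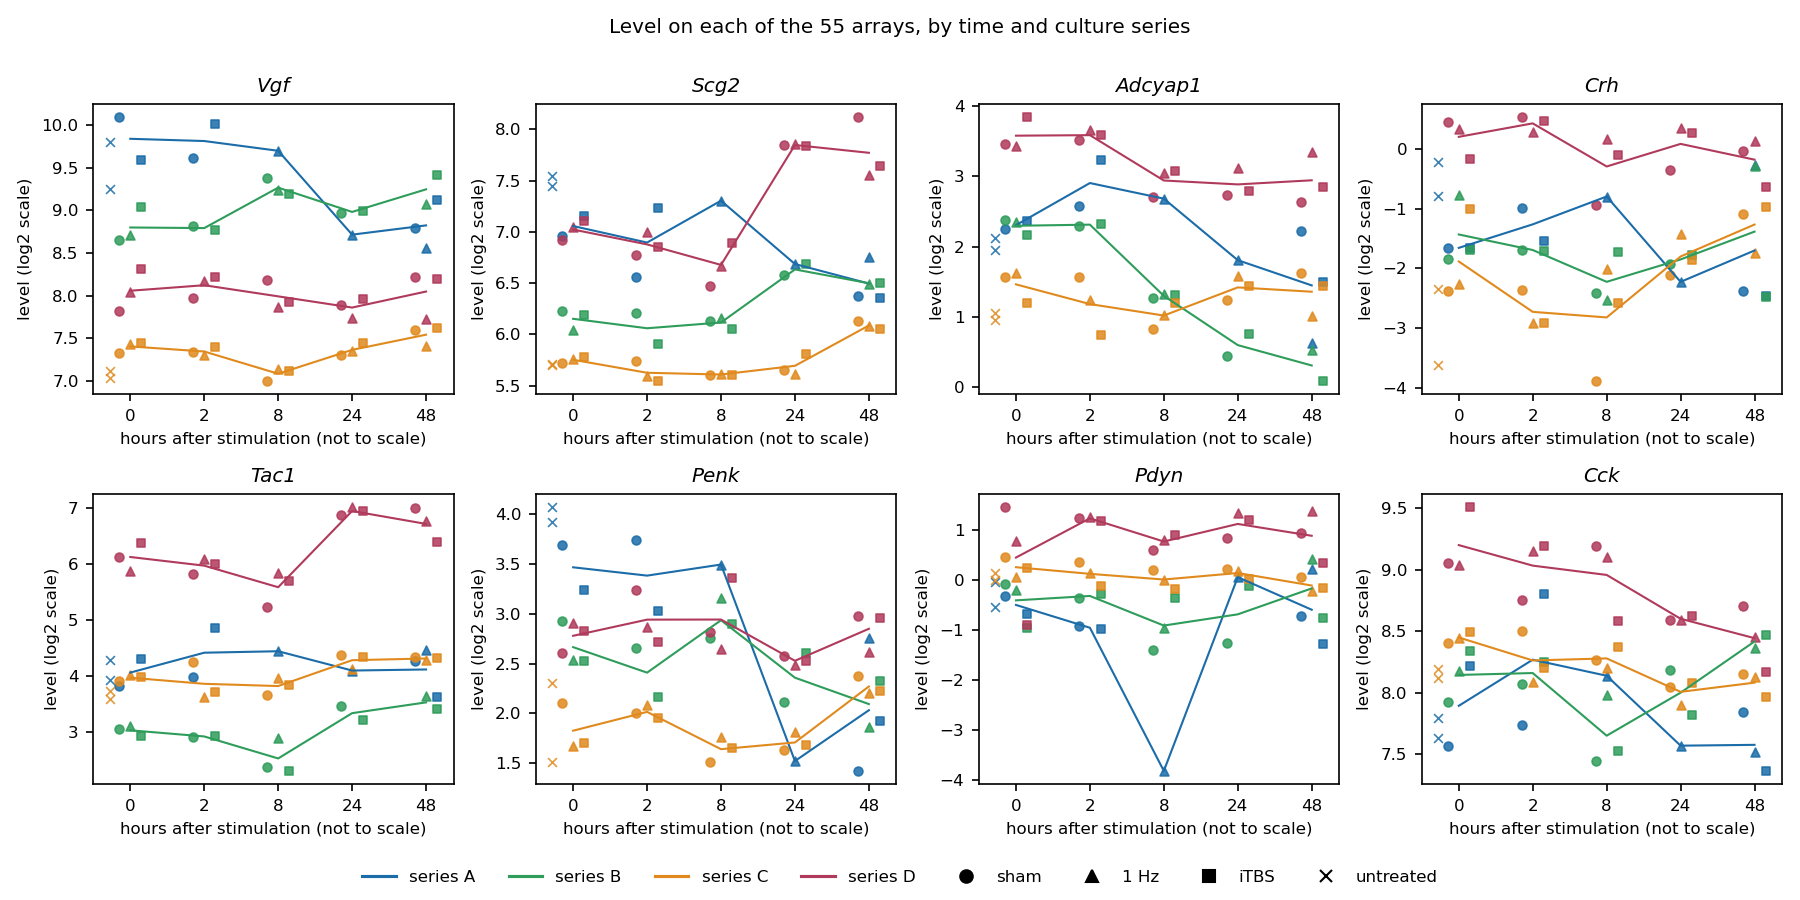
Level (log2, common mean and spread on each array) of each gene on every array used, by hours after stimulation, coloured by culture series and with a marker per arm; lines join the means of a series without its untreated dishes, and the time axis is not to scale. Tac1 of series D lies above every other array, and Vgf separates into series A and B above D above C.

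Among the granule proteins, Vgf ran from 8.56 to 10.09 in series A (median 9.58), 8.65 to 9.41 in B (9.02), 7.72 to 8.31 in D (7.97) and 7.0 to 7.62 in C (7.34). Only A and B overlapped. Series C was 4.21-fold below A (log2 difference -2.07 ± 0.13 SE, limma adjusted p = 6.0e-16), and D lay 0.69 ± 0.12 above C, or 1.59 by the other Vgf probe. Scg2, secretogranin II, a granin that is also cut into peptides, had another order. Its levels were 6.36 to 7.54 in series A (median 6.96), 5.91 to 6.69 in B (6.20), 5.55 to 6.13 in C (5.71) and 6.47 to 8.12 in D (7.05), so that C overlapped B but neither A nor D. Series D was 1.53 ± 0.13 above C and 0.37 ± 0.15 above A, the latter with an adjusted p of 0.0383 in limma. That call was lost in 11 of the 55 fits that each left out 1 array (adjusted p 0.0531 to 0.142).

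Tac1 showed the widest gap. It ran from 5.23 to 7.01 in series D (median 6.13), 3.62 to 4.86 in A (4.26), 3.59 to 4.38 in C (3.98) and 2.31 to 3.64 in B (3.0). Every series D array was above every array of the other series. Series D was 9.30-fold above B (3.22 ± 0.12, limma adjusted p = 2.9e-23), 4.72-fold above C and 4.32-fold above A, while the difference of C from A was -0.13 (adjusted p = 0.42). Cck, the cholecystokinin precursor, had a narrower range. It lay at 8.17 to 9.51 in series D (median 8.75), 7.90 to 8.50 in C (8.20), 7.45 to 8.46 in B (8.12) and 7.36 to 8.80 in A (7.73). The ranges of every pair of series overlapped, and D was above the others by 0.63 to 1.02.

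Adcyap1 encodes PACAP, a peptide that raises cyclic AMP in its target cells. It ran from 2.64 to 3.84 in series D (median 3.12), 0.63 to 3.23 in A (2.22), 0.09 to 2.38 in B (1.32) and 0.75 to 1.63 in C (1.24). Series D overlapped A only. It was 3.76-fold above C (1.91 ± 0.16) and 3.33-fold above B (1.74), while the difference of C from B was -0.18 (limma adjusted p = 0.48). Crh was dim, well above background on 50 of 55 arrays, and its values on the other 5 are bounds. Its level was -0.94 to 0.53 in series D (median 0.16), -2.47 to -0.22 in A (-1.55), -2.53 to -0.29 in B (-1.75) and -3.89 to -0.97 in C (-2.27). Series D was above every C array and 2.26 ± 0.24 above C in the fit. Under normexp background correction that difference was 0.85 and the one between D and A 0.65, both still called.

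The opioid precursors differed in their order. Penk, the proenkephalin gene, ran from 1.42 to 4.07 in series A (median 3.24), 1.86 to 3.15 in B (2.57), 2.49 to 3.36 in D (2.82) and 1.51 to 2.38 in C (1.81). Series C was lowest, with a difference of -1.05 from A, and D lay 0.99 above it. The difference of D from A was -0.07 (limma adjusted p = 0.82). The other Penk probe was well above background on only 10 of 55 arrays and gave no call between series (adjusted p = 0.81), with -0.21 for C against A and 0.31 for D against C. Pdyn ran from -3.82 to 0.22 in series A (median -0.67), -1.40 to 0.43 in B (-0.37), -0.23 to 0.47 in C (0.07) and -0.90 to 1.46 in D (0.94). The value of -3.82, the 1 Hz dish of series A at 8 h, was the only one not well above background. Series D was above the others by 0.85 to 1.78, and the ranges overlapped. Under normexp these differences were 0.48 to 0.96, and each was still called.

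Series D thus stood above series C for all 8 genes, against 28.7% of all probes called higher in that comparison and 52.5% called in either direction. Because series D shared every slide with another series, it could be set against that series within slides. Times and arms were not matched there, so these differences mix series with time. Tac1 was higher in series D on 7 of 7 slides, by 1.81 to 3.15, and Crh, Adcyap1, Pdyn and Cck were also higher on 7 of 7. Scg2 and Penk were higher on 6 of 7. For Penk the difference was -0.98 on the slide shared with early dishes of A (0 and 2 h). It was 0.68 on the slide shared with mostly late ones. Vgf was higher on 3 of 7, the slides shared with series C, and lower on the 4 shared with A or B.

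**Figure D3:**
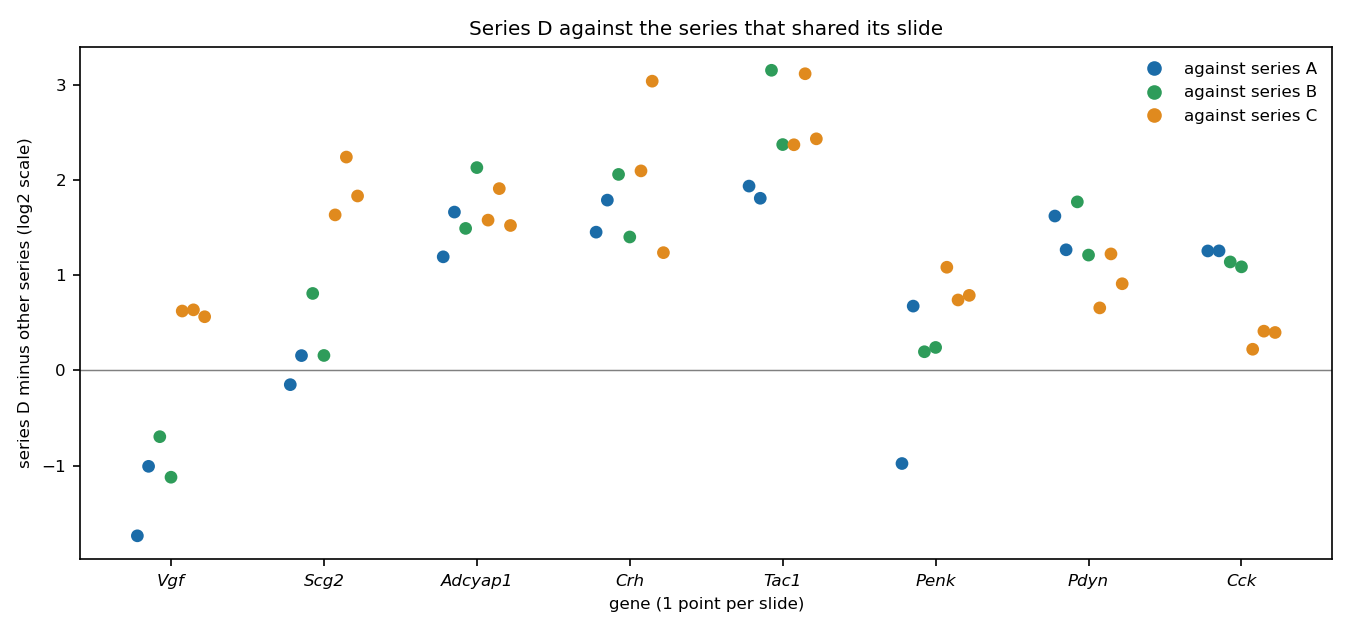
Mean log2 level of series D minus the mean of the other series on the same slide, 1 point per slide (7 slides), for each gene. Times and arms were not matched within a slide. Tac1, Crh, Adcyap1, Pdyn and Cck are above 0 on all 7 slides, and Vgf is above 0 on the slides of series C alone.

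Markers of other cell types moved with the series as well. Summed marker signal, relative to the 75th percentile of each array, was lower in series D for the oligodendrocyte lineage (15.8 to 51.3, against 75.3 to 271 in the others) and higher for vascular and fibroblast genes (22 to 33.9, against 2.77 to 8.57). The sum of GABAergic neuron markers was 41.2 to 60.3 in series D, 28 to 50.4 in A, 24.5 to 48.1 in B and 28.3 to 35.4 in C. Against series C, D had 7 of 11 GABAergic markers called higher and 0 lower, 9 of 11 excitatory neuron markers higher and 0 lower, 6 of 9 pan-neuronal markers higher and 0 lower, 5 of 9 vascular and fibroblast markers higher and 1 lower, and 0 of 10 oligodendrocyte lineage markers higher and 9 lower. Over all genes tested, 30% were called higher and 25.6% lower in D against C. Pvalb, a calcium buffer of fast-spiking interneurons, averaged 1.20 in D and -0.52 in C, and Dlx1, a transcription factor of the interneuron lineage, 4.40 and 3.38. Astrocyte sums overlapped between all series (158 to 286 in D and 188 to 508 in the others), and microglial sums were low throughout (0.947 to 9.45), with 3 of 7 markers well above background on all arrays. The part of cell makeup in the peptide levels was not tested.

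Across times, none of the 8 genes was called as long as the series were ignored (0 of 8, adjusted p 0.540 to 0.988, against 8.16% of all probes). With the series as a block, limma's F test over the 5 times, averaged over sham, 1 Hz and iTBS, called 4 of 8 against 27% of all probes. These were Tac1 (adjusted p = 8.4e-05), Adcyap1 (0.00182), Cck (0.0430) and Scg2 (0.0483). Vgf (0.771), Crh (0.417), Pdyn (0.267) and Penk (0.198) were not called. Leaving out series D ended all 4 calls (adjusted p 0.0905 for Adcyap1, 0.101 for Tac1, 0.514 for Cck and 0.921 for Scg2), and leaving out series B ended those of Adcyap1 (0.119) and Scg2 (0.254). Cck was also not called without series A (0.0958) or C (0.206), nor Scg2 without C (0.122), and Penk was called without series C (0.0462).

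Adcyap1 fell. In series B its level at 0 h was 2.38 in sham, 2.34 in 1 Hz and 2.17 in iTBS dishes, then 1.27, 1.33 and 1.31 at 8 h, 0.44 in sham and 0.76 in iTBS at 24 h, and 0.53 in 1 Hz and 0.09 in iTBS at 48 h. All dishes of series B from 8 h on were below all of those at 0 and 2 h. In series D it was 3.46, 3.43 and 3.84 at 0 h and 2.64, 3.35 and 2.84 at 48 h for sham, 1 Hz and iTBS, each below the lowest at 0 h. Series C showed no such fall, with 1.57, 1.62 and 1.20 at 0 h and 1.63, 1.01 and 1.43 at 48 h. In series A the sham dishes of 0, 2 and 48 h had 2.25, 2.58 and 2.22, and the iTBS dishes 2.36, 3.23 and 1.5. The 1 Hz dishes of series A, collected at 8, 24 and 48 h, had 2.68, 1.81 and 0.63. Over all series the change was -0.71 ± 0.21 at 24 h (limma adjusted p = 0.0166) and -0.83 ± 0.20 at 48 h (0.00173), a 1.77-fold drop, with 14% and 27% of all probes called at these times. Without series B these were -0.39 (0.303) and -0.54 (0.0692), and without series D the 24 h change was -0.72 (0.163). The 24 h call was also lost without the sham dish (0.0573) or the iTBS dish (0.0512) of series B at 24 h. The other Adcyap1 probe changed by -0.50 at 24 h and -0.52 at 48 h (adjusted p = 0.0207 and 0.00634).

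Over all series together, Tac1 was higher at the late times. In series D it was 6.13, 5.87 and 6.37 at 0 h in sham, 1 Hz and iTBS dishes, 5.23, 5.83 and 5.69 at 8 h, and 6.87, 7.01 and 6.95 at 24 h. The 8 h dishes were below and the 24 h dishes above all 3 dishes at 0 h. In series B it was 3.06, 3.1 and 2.93 at 0 h and 3.47 in sham and 3.21 in iTBS at 24 h, and in C 3.91, 4.02 and 3.98 at 0 h and 4.38, 4.13 and 4.33 at 24 h. Series A showed no clear change, with 3.82 in sham and 4.30 in iTBS at 0 h, 4.10 in its dish at 24 h and 4.26, 4.47 and 3.62 at 48 h. In the fit the change was 0.45 ± 0.14 at 24 h (limma adjusted p = 0.0228) and 0.37 ± 0.13 at 48 h (0.0351), and at 8 h it was -0.35 ± 0.13 (0.195). The 24 h call was lost without any 1 of the 3 series D dishes at 24 h or the 1 Hz dish of series D at 0 h (adjusted p 0.0527 to 0.0842), and without series B (0.0617), C (0.0726) or D (0.450). The 48 h call was lost under scaling to the 75th percentile (0.0615) and under quantile normalization (0.0603), and without series B (0.144), C (0.111) or D (0.282). It was also lost without any 1 of 7 dishes (0.0527 to 0.113), namely sham of A, 1 Hz of D and iTBS of B at 0 h, and sham of D, 1 Hz of B, iTBS of B and iTBS of C at 48 h. In sham dishes alone, with the series as a block, Tac1 was the 1 gene of the 8 called over time (adjusted p = 0.0146, against 3.3% of all probes), and without the block 0 of 8 were called (0.0784% of all probes).

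Cck changed by -0.39 ± 0.13 at 24 h (limma adjusted p = 0.0377) and by -0.34 at 48 h (0.0376). Scg2 changed by 0.31 at 24 h (0.201). Their F tests were near the threshold. They passed in 29 (Cck) and 18 (Scg2) of 55 fits that each left out 1 array, while those of Adcyap1 and Tac1 passed in all 55.

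**Figure D4:**
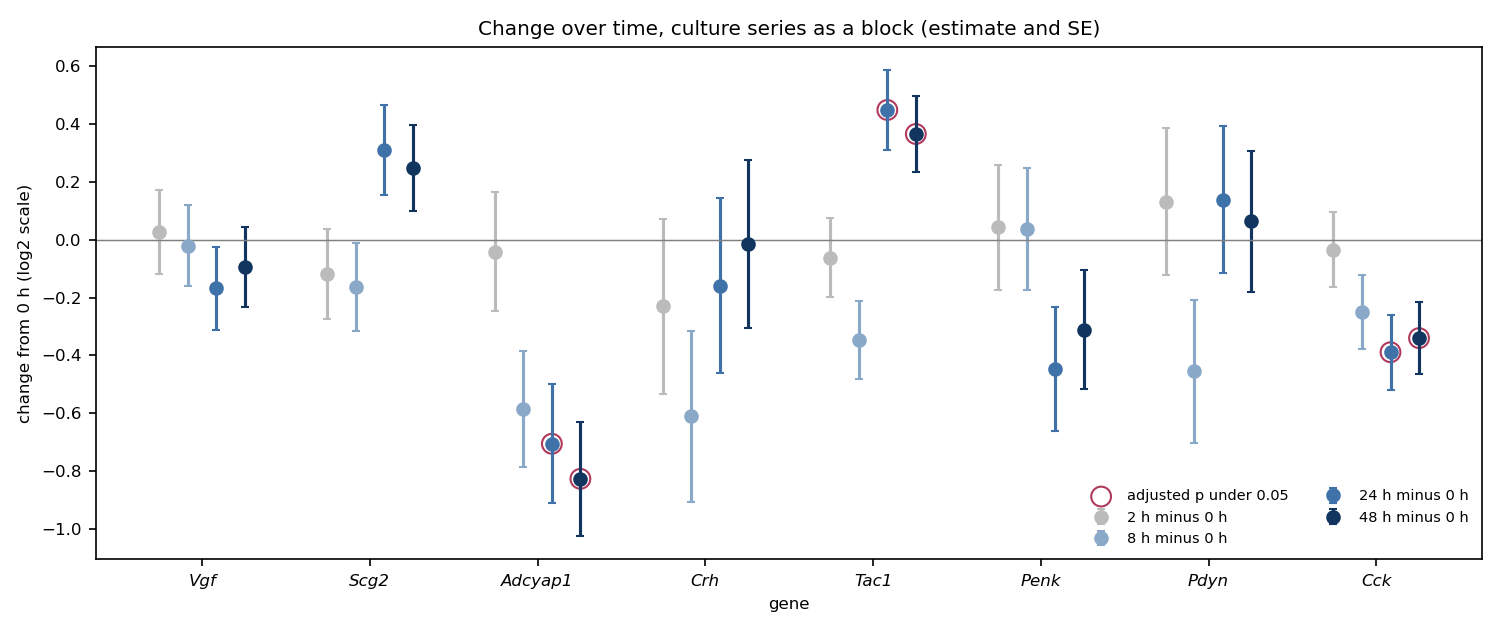
Change in log2 level from 0 h to 2, 8, 24 and 48 h for each gene, as fitted by limma with the series as a block over sham, 1 Hz and iTBS dishes; bars are standard errors and rings mark an adjusted p under 0.05. Rings lie on Adcyap1, Tac1 and Cck at 24 and 48 h, below 0 for Adcyap1 and Cck and above 0 for Tac1.

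The course over time also differed between the series, in a fit without a term for slide. Slides largely followed time within each series, so slide and time cannot be told apart there. An F test of series by time, added after the data were seen, called 6 of 8 genes against 39.4% of all probes: Scg2 (limma adjusted p = 7.12e-06), Vgf (3.53e-05), Penk (0.000782), Adcyap1 (0.00114), Pdyn (0.00572) and Tac1 (0.0305). Crh (0.200) and Cck (0.0987) were not called. The Pdyn call rested on the 1 array not well above background, since without it the adjusted p was 0.633. The same array decided Tac1 (0.0725 without it), as did the iTBS dish of series D at 24 h (0.0515). The calls of Scg2, Vgf, Penk and Adcyap1 held in each of 51 fits that left out 1 array.

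Scg2 in series D was 6.92, 7.05 and 7.10 at 0 h (sham, 1 Hz and iTBS), 7.85, 7.86 and 7.83 at 24 h and 8.12, 7.55 and 7.64 at 48 h. All 6 late dishes were above the 0 h dishes. In series A it was 6.96 in sham and 7.15 in iTBS at 0 h, and 6.38, 6.75 and 6.36 at 48 h, all 3 below. Vgf in series A went from 10.09 and 9.58 at 0 h to 8.79, 8.56 and 9.12 at 48 h, a change of -1.02, whereas in series B the 48 h change was 0.45 and all dishes at 8 h (9.38, 9.23 and 9.19) were above those at 0 h. Penk in series A went from 3.69 and 3.24 to 1.42, 2.75 and 1.92 at 48 h, with 1.52 in its only dish at 24 h. In series C it was 2.38, 2.21 and 2.23 at 48 h, above the sham, 1 Hz and iTBS dishes at 0 h (2.10, 1.67 and 1.70). Of these 48 h dishes, only the sham dish was also above the higher of the untreated dishes of series C (2.30 and 1.51). At 24 h the series C dishes were at 1.63, 1.81 and 1.68.

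The partners of these genes were read from lists of the same system. Of 13 other granins and granule proteins tested, 10 differed between series and 3 over time with the series block. Over all 13888 genes tested, 78.1% differed between series and 30.8% over time, so neither share of this list was above that of all genes. Dnajc5, a chaperone of vesicle exocytosis, changed by -0.28 at 24 h and -0.33 at 48 h (limma adjusted p = 0.0160 and 0.00207). Ptprn, the granule membrane protein IA-2, changed by 0.44 at 48 h (0.00814). Slc18a2, the vesicular monoamine transporter, averaged 2.10 in series A and 3.35 in D.

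Among 12 genes of prohormone processing, 10 differed between series, a share near the 78.1% of all genes, and 7 over time, beside 30.8% of all genes. Pcsk2, the prohormone convertase 2 that many of these precursors need, changed by -0.57 at 24 h (limma adjusted p = 0.000297) and -0.52 at 48 h (0.000218). Pcsk4 changed the other way, by 0.74 at 48 h (0.000204). Against series C, series D had 7 of the 12 called higher and 0 lower, with a median difference of 0.22, beside a median of 0.04 over all genes, of which 30% were called higher and 25.6% lower.

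Of 25 other neuropeptide genes, 23 differed between series and 13 over time, against 10842 and 4273 of all 13888 genes. In series D against C, 16 were called higher and 2 lower, with a median difference of 0.63, and D was also higher for 16 of 25 against A and 15 of 25 against B. Over all genes, 30% were called higher and 25.6% lower in D against C. The share called higher was 22.6% against A and 33.7% against B. Calca, which encodes calcitonin and CGRP, averaged 1.75 in series D and -0.69 in C, and changed by 0.84 at 48 h over all series (limma adjusted p = 0.00746). Gal, the galanin precursor, averaged 3.68 in D and 0.67 in A, and changed by 0.88 at 48 h (0.0146). Nts, the neurotensin precursor, changed by -0.51 at 24 h (0.00117), and Nppc, the C-type natriuretic peptide precursor, by -0.71 (0.00093).

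Of 14 receptors and binding proteins, all 14 differed between series and 8 over time, beside 78.1% and 30.8% of all genes. At 48 h 6 were called higher and 0 lower, beside 19.2% and 10.7% of all genes. The neurokinin receptor Tacr3 changed by 1.23 at 48 h (limma adjusted p = 1.27e-05), its relative Tacr2 by 1.04 (1.23e-05), and the brain cholecystokinin receptor Cckbr by 0.98 (4.5e-06). Oprm1, the mu opioid receptor, averaged -2.19 in series D and -4.57 in C, and Crhbp, which binds Crh outside the cell, 1.43 and 0.12. Of the 14, 11 were well above background on all arrays and 3 rarely or never. Oprm1 was dim, so its mean in C may be a bound, and the size of its difference is uncertain.

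The activity-regulated genes, the usual readout of calcium and CREB signalling, gave 21 of 24 different between series, 11 over time and 20 with a series-by-time term, beside 78.1%, 30.8% and 43% of all genes. In series D against C 17 were called higher and 1 lower, beside 30% and 25.6% of all genes. Against A 4 were higher and 7 lower, beside 22.6% and 21.7% of all genes. Fosb, a subunit of AP-1, averaged 0.19 in series D, -0.88 in A, -2.27 in B and -2.73 in C. Arc, a synaptic immediate early gene, averaged 4.93 in series A, 4.86 in B, 2.82 in D and 2.09 in C. At 24 h 4 of the 24 were called lower and at 48 h 6, with 0 higher at either time, beside 5.62% and 10.7% of all genes called lower. The nuclear receptor Nr4a2 changed by -0.92 at 24 h and -1.20 at 48 h (limma adjusted p = 0.00418 and 5.8e-05), and Bdnf, the neurotrophin, by -0.69 at 24 h (0.0417). No gene of these lists was called in any comparison of stimulation with sham.

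The genes whose levels followed each peptide gene most closely over the 55 arrays were taken from all 13888 genes tested, as Pearson's r. The arrays share their series, so r over all of them includes the steps between series. Vgf was closest to Nptx2, a secreted pentraxin of excitatory synapses (0.924), the transcription factor Etv5 (0.920) and Slit3 (0.916). Within series, r with Nptx2 went from -0.16 in C to 0.71 in A, while that with Etv5 was between 0.59 and 0.92. Scg2 was closest to Srprb (0.888), Calca (0.886) and Piezo1 (0.883). Tac1 was closest to Cartpt, the precursor of the CART peptides (0.953, and 0.65 to 0.83 within each series), Arl1 (0.934) and Lhfpl5 (0.932). Within series, r with Arl1 was -0.02 to 0.82 and that with Lhfpl5 0.12 to 0.92, both lowest in series A. Cck was closest to Cd24 (0.929), which was nearly as high within each series (0.87 to 0.93), Bex1 (0.878) and Rbfox1 (0.859). For Adcyap1 the nearest were Cdkl3 (0.902), Ensa (0.894) and Fem1b (0.894). For Crh they were C8h11orf87 (0.849), Cpne8 (0.839) and Rbm20 (0.819). The nearest to Penk were Rab20 (0.898), Tnfrsf12a (0.891) and Klf6 (0.882), and those to Pdyn were Triqk (0.876), Tjp3 (0.839) and Dkk3 (0.834). Some of these were weak within a series. There r was 0.08 to 0.71 for Rbm20 with Crh, 0.04 to 0.95 for Klf6 with Penk and -0.34 to 0.85 for Tjp3 with Pdyn. The lowest r within a series was 0.15 for Srprb and 0.21 for Piezo1 with Scg2, both in B. It was 0.11 for Slit3 with Vgf, 0.19 for Cpne8 with Crh and 0.23 for Rab20 with Penk.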

How the data were processed

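Total RNA of 56 dishes was labelled with Cy3 and hybridised to Agilent rat arrays. The authors deposited scanner output from Agilent Feature Extraction 12.0.3.1 (header build rn4), whose processed signal is a background-subtracted intensity on a linear scale. The authors also deposited a table with a score for each spot, the z-score of its log signal within the array, made in DIANE per the methods. Its rows matched the spot numbers of the scanner files (rank correlation of at least 0.9998 with the scanned signal on each array, column medians -0.66 to 0), and it served as an alternative. Here log2 of the deposited processed signal was averaged over spots of a probe without outlier spots, turned into z-scores array by array and put back on a log2 scale by 1 common factor, the arrays' median SD of 4.06. Of 45598 probes, 420 were dropped for lack of a value and 9484 were too dim, and the 35694 probes well above background on at least 3 of 55 arrays were tested. limma 3.58.1 in R 4.3.3 fitted the 16 groups together, two-sided, with Benjamini-Hochberg adjustment over all probes tested and a threshold of 0.05. Times were compared as the equal-weight average of sham, 1 Hz and iTBS. Series effects came from group plus series. Alternatives were other scalings, filters, probes and blocks, and leaving out arrays or series. For normexp (offset 50) the median spot signal was used, as the files carry no mean signal. Where series by time lost its only series A dish at 8 or 24 h, the emptied cell's term was dropped. Gene names came from RefSeq accessions. The fits were tested on simulated data.

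The 8 genes, the lists and the tests were chosen with earlier results of these data known. The text names all 8 genes, the 3 genes most correlated with each, and up to 3 called genes of a list with the largest differences. GEO's design text for the series describes slices, and the sample labels of cultures were followed.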

Additional observations from a re-analysis of the deposited data

Results flagged for a closer look

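For 6 of the 8 genes the change over time differed between the culture series, by limma's F test of series by time over 51 arrays. That test had no term for slide, and slides largely followed time within a series. The adjusted p was 7.12e-06 for Scg2, 3.53e-05 for Vgf, 0.000782 for Penk, 0.00114 for Adcyap1, 0.00572 for Pdyn and 0.0305 for Tac1, in a test that called 39.4% of all probes. Without the series A dish given 1 Hz and collected at 8 h, where Pdyn was not well above background, the adjusted p was 0.633 for Pdyn and 0.0725 for Tac1. In 64 tests, of each gene in each of the 8 groups with 4 dishes, no dish lay far enough from the others to be marked as an outlier. Smaller groups were not tested. The tested groups mostly held 1 dish of each series, so that differences between series widened their range. Even the Pdyn value of -3.82 in the 1 Hz group at 8 h, where the highest was 0.80, was not marked.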

How the results depend on the processing

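The counts of the 8 genes called, 0 for stimulation, 0 for untreated control, 0 for iTBS against 1 Hz, 0 over time, 0 over time in sham and 8 between series, held under each scaling, with the authors' value table and with slide as a block, and leaving out each array in turn gave 0 to 0 and 8 to 8. With the series as a block, 4 were called over time (27% of all probes) and 1 over time in sham (3.3%). That time count of 4 was 2 with no filter on dim probes (20% of all probes), 2 without series B and 0 without series D. It was 2 to 4 when each array was left out (23% to 29.5% of all probes). The series-by-time count was 5 to 7 over those leave-outs (33.2% to 52.3% of all probes) and 4 without the 1 Hz dish of series A at 8 h (35.2%). The series count of 8 (75.4% of all probes) was 7 with the other Penk probe, 7 in sham arrays alone and 6 with all 56 arrays (41.7% of all probes). With all 56 arrays, stimulation called 4 and iTBS against 1 Hz called 3, where 4.86% and 9.33% of all probes were called, and Vgf of series B against A (0.31), Pdyn of C against A (-0.12) and Scg2 of D against A (-0.061) reversed. Of the 37 called series differences, 21 were lost or reversed with all 56 arrays, 10 were lost with slide and 5 with the replicate number as a block. The normexp setting ended the difference of Crh between C and A, and the other Penk probe the 3 differences of Penk.

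Replicate numbers did not pair the dishes: residuals of same-numbered dishes correlated at 0.160 on average and as low as -0.462, and those of same-series dishes at 0.398. With the replicate number as a block, the counts stayed 0, 0, 0, 0, 0 and 8. Groups of 2 to 4 dishes and the dim signal of Crh and Pdyn limit what could be detected.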
